A study of Mus musculus with 34 samples.

Results

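Untreated NaJa-G cells were compared with untreated NaJa-F cells, a pair of mouse colorectal cancer lines that share their driver alleles. The comparison used 11 of the 34 RNA-seq libraries of the study: 5 NaJa-G libraries (3 from day 1 and 2 from day 5) and 6 NaJa-F libraries (3 from each day), all chosen by line, treatment and day as their titles give them. Both lines carry the genotype VillinCreERT2::BrafV600E/+::Trp53R172H::APCdel on the C57BL/6N background. They were grown out of the peritoneal lavage of separate recipient mice that had received colon organoids of 1 male donor, in which a tamoxifen-inducible Cre under the Villin promoter had recombined the alleles, so each line stands for 1 tumour-bearing animal. The cells were kept in DMEM with 10% serum and received DMSO, the solvent control of the drug encorafenib, in fresh medium at the start, and again on days 2 and 4 for the day 5 libraries. The labels do not say whether replicates were separate cultures. The p-values therefore measure the spread between libraries of a group, estimated over all 34 libraries, and this spread may be technical.

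Epithelial cells are held together by tight junctions, adherens junctions and desmosomes, and transcription factors such as GRHL2 and OVOL1 keep these genes on. In epithelial-mesenchymal transition (EMT), repressors of the ZEB, SNAI and TWIST families silence junction genes while intermediate filaments, N-cadherin and fibrillar matrix are produced. Carcinoma lines can occupy any position along this axis, and intestinal identity is kept in parallel by factors such as CDX2 and HNF4A.

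Total counts of the 11 libraries ranged from 56441590 to 80121299. Over genes, libraries of 1 group correlated with Pearson's r of at least 0.989, while a NaJa-G and a NaJa-F library correlated at 0.931 to 0.954. Every marker list was checked in the bulk counts. All 12 intestinal epithelial markers were measured and summed to 1520 to 2890 CPM (read counts scaled to a common library size) in NaJa-G and 3490 to 4620 CPM in NaJa-F. None of the 9 lymphocyte markers was in the table, nor were Ptprc, Adgre1, Itgam and Lyz2 among the 12 macrophage markers, and the 4 macrophage markers measured summed to 33.8 to 39.2 CPM and 35 to 39.4 CPM. The 2 of 8 endothelial markers measured summed to 1.15 to 1.62 CPM in NaJa-G and 0.92 to 1.72 CPM in NaJa-F. The 4 of 8 mesothelial markers measured summed to 497 to 724 CPM in NaJa-G and 660 to 985 CPM in NaJa-F, nearly all of it Msln, and the defining markers Wt1 and Calb2 were not in the table. The fibroblast list moved with the comparison, and it and the smooth muscle list are given beside the matrix genes. A NaJa-D library of the study (DMSO, day 1, replicate 3) has a cell line field that reads NaJa-G. It correlated at 0.995 or more with the other NaJa-D day 1 libraries and at 0.92 or less with NaJa-G, is in neither group compared, and entered only the scaling and the shared estimate of the spread. Without it 7606 genes were called instead of 7673, 50% of them higher in NaJa-G instead of 46.3%, and in encorafenib 9155 were called, 52.8% of them higher instead of 49.1%. Braf, Trp53 and Apc, the engineered genes, did not pass the test between the lines, though Trp53 and Braf lay near its limit (0.12 ± 0.04, limma adjusted p = 0.0106, and 0.18 ± 0.07, limma adjusted p = 0.0345). Trp53 passed under 8 other settings, at adjusted p from 0.000153 to 0.00914, and Braf under 2, DESeq2 (0.00681) and the fit without NaJa-G day 5 replicate 3 (0.00116). Their median levels were 42.6, 211 and 205 CPM in NaJa-G and 41.9, 183 and 226 CPM in NaJa-F.

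Of 14107 genes tested, 7673 (54.4%) differed between the lines at an adjusted p below 0.01 (limma, mean of the day 1 and day 5 differences), 3554 (25.2%) higher and 4119 (29.2%) lower in NaJa-G. The shares higher and lower are the background for the counts of every gene list below. Most of the differences between the lines were small. The absolute log2 fold change was under 0.5 for 50.3% of the genes called, and 784 (5.56%) were at least 2-fold higher and 1305 (9.25%) at least 2-fold lower in NaJa-G. Differences of 8-fold or more comprised 114 higher and 158 lower genes. The 5 NaJa-G values lay wholly above or below the 6 NaJa-F values for 4699 genes (33.3%). The median log2 fold change over all genes was -0.01. Throughout, levels are CPM after scaling by trimmed mean of M-values (TMM), and differences are log2 fold changes of NaJa-G over NaJa-F with their standard error (SE).

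Several genes were close to absent in one line and well expressed in the other. Gpc6, a heparan sulfate proteoglycan anchored to the cell surface, was measured at 28.1, 26.1 and 23.5 CPM on day 1 and 53.5 and 43.5 CPM on day 5 in NaJa-G, and at 0.0172 to 0.0982 CPM in NaJa-F, where the 6 libraries held 16 reads together. Its log2 fold change was the highest among genes called with an average of at least 3 log2 CPM in one line (9.62 ± 0.32, adjusted p = 6.03e-21). Wnt2, a secreted WNT ligand, stood at 14.1, 11.9 and 12.4 CPM on day 1 and 9.57 and 11.7 CPM on day 5 in NaJa-G, against 0.056 to 0.178 CPM in NaJa-F (6.84 ± 0.28, adjusted p = 1.64e-18). Tgfb3, a transforming growth factor, ranged from 14.7 to 22 CPM in NaJa-G and from 0.446 to 0.858 CPM in NaJa-F (4.78 ± 0.14). The transcription factor gene Sall2 (5.03 ± 0.13) was higher too, as was the zinc finger gene Zfp334 (7.64 ± 0.20), at 24.4 to 25.9 CPM in all 5 NaJa-G libraries. Prr16 (8.57 ± 0.36) and the lipoprotein gene Apoc2 (6.67 ± 0.28) belonged to the same group, together with the matrix and cytoskeletal genes Col1a2, Fbln2 and Acta2 described with their lists. Clec2f (8.77 ± 0.52) is annotated as a transcribed pseudogene of a multigene family, so reads of related genes may be part of its value.

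The genes at the other end were likewise far apart. Nat8l, which makes N-acetylaspartate, was measured at 51.6 to 74.1 CPM in NaJa-F and at 0.314 to 0.563 CPM in NaJa-G (-7.33 ± 0.20, adjusted p = 4.74e-23). Il5ra, a subunit of the interleukin 5 receptor, ranged from 30.5 to 39.9 CPM in NaJa-F and from 0.139 to 0.518 CPM in NaJa-G (-7.19 ± 0.25). Xirp2, an actin-binding protein best known from muscle, ranged from 87.4 to 108 CPM against 0.596 to 1.6 CPM (-6.86 ± 0.22). Isx, an intestine-specific homeobox factor, was at 20.1, 20 and 19 CPM on day 1 and 23.6, 25.7 and 26.5 CPM on day 5 in NaJa-F and never above 0.368 CPM in NaJa-G (-6.34 ± 0.19, adjusted p = 1.04e-21). The diacylglycerol kinase gene Dgkk (-4.80 ± 0.16), Plac8 (-4.79 ± 0.13), the TNF receptor gene Tnfrsf26 (-4.69 ± 0.08) and Tmem56 (-4.54 ± 0.10) came next. The signalling adaptors Dok2 (-4.52 ± 0.23) and Pag1 (-4.29 ± 0.09), Gas7 (-4.38 ± 0.15) and the serpin gene Serpinb11 (-4.34 ± 0.14) completed the 12 lowest. The lines do not overlap for any of the genes of these groups, since the rule that picked them required it.

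By abundance, set per kilobase of exon so that genes can be compared, other genes stood out. Lgals1, encoding galectin-1, averaged 1500 CPM per kilobase in NaJa-G and 139 in NaJa-F, and Vim, the mesenchymal intermediate filament vimentin, averaged 499 against 80.9. The calcium-binding protein gene S100a6 averaged 1700 against 1050 CPM per kilobase, and the ferritin light chain gene Ftl1 707 against 487. In the opposite direction, Sprr1a, a cornified-envelope protein of a family with near-identical members, averaged 231 in NaJa-G and 908 in NaJa-F. Ly6a, also called Sca-1 and a marker of regenerating intestinal epithelium, averaged 445 against 1040. The platelet-type chemokine gene Ppbp averaged 28 against 496 CPM per kilobase, Cldn4 48.4 against 435 and Cldn3 54 against 379. Fn1 (fibronectin, 408 against 725), Clu (clusterin, 120 against 422) and the ribosomal gene Rplp0 (1570 against 2050) were the remaining protein-coding genes picked in this way. All of these passed the test, and the lines overlapped only for Rplp0 among them (-0.40 ± 0.09, limma adjusted p = 0.000144). Ftl1 was not called on day 5 alone (limma adjusted p = 0.0275). The same rule also picked 2 mitochondrial transcripts and 2 non-coding loci, which are not described further.

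**Figure D1:**
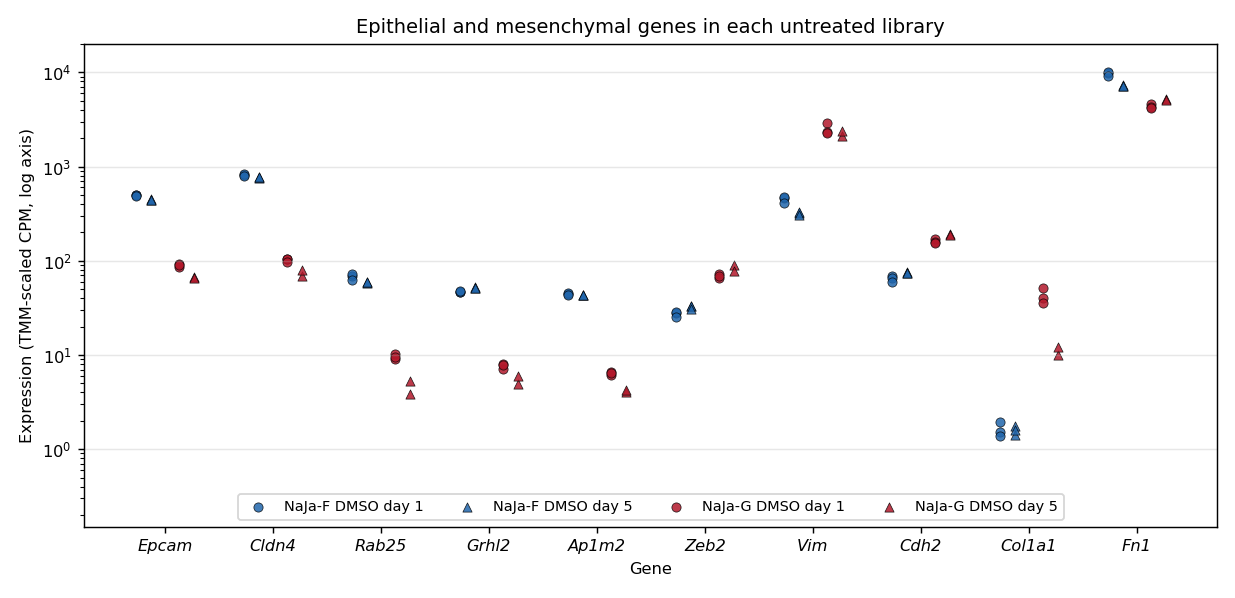
Expression (TMM-scaled CPM, log axis) of 10 genes in each untreated library, circles for day 1 and triangles for day 5, NaJa-F in blue and NaJa-G in red. The 5 epithelial genes on the left are lower in all 5 NaJa-G libraries, Zeb2, Vim, Cdh2 and Col1a1 are higher in all 5, Fn1 is lower, and Col1a1 falls from 35.3 to 50.9 CPM on day 1 to 9.92 and 12.1 CPM on day 5 in NaJa-G.

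Junction genes were lower in NaJa-G almost throughout. Of 28 genes of tight junctions, adherens junctions and desmosomes, all measured, 25 were lower, 2 were higher and 1 was not called, with a median log2 fold change of -2.02 beside -0.01 over all genes. Epcam, an epithelial adhesion molecule, was at 86.1, 93.4 and 91.1 CPM on day 1 and 67.3 and 65.1 CPM on day 5 in NaJa-G, and at 501, 503 and 488 CPM and 447, 449 and 446 CPM in NaJa-F (-2.61 ± 0.05, adjusted p = 1.74e-26). The claudin gene Cldn4 was at 106, 104 and 96.6 CPM and then 68.1 and 79.1 CPM in NaJa-G, against 758 to 835 CPM in NaJa-F (-3.19 ± 0.06). Every NaJa-G library was far below every NaJa-F library for both genes. Occludin (Ocln) ranged from 6.72 to 8.82 CPM against 70.3 to 79.1 CPM (-3.30 ± 0.07). The desmosomal cadherin gene Dsg2 ranged from 9.65 to 13.9 CPM against 120 to 133 CPM (-3.42 ± 0.06), and the scaffold gene Tjp3 (-3.58 ± 0.25) had the lowest log2 fold change of the list at a low level in both lines. E-cadherin (Cdh1), the adherens junction cadherin, was lowered far less: it ranged from 494 to 584 CPM in NaJa-G and from 764 to 865 CPM in NaJa-F (-0.57 ± 0.05, adjusted p = 1.32e-10). Tjp1, F11r and Ctnnd1 likewise differed by less than 1 on the log2 scale. The 2 members higher in NaJa-G were Cldn2, a pore-forming claudin of crypts (20.7 to 22.3 CPM against 4.23 to 7.54 CPM, 1.88 ± 0.05), and desmoplakin (Dsp, 0.24 ± 0.06), whose lines overlapped and which did not differ on day 1 alone. In bulk RNA, fewer cells with a transcript and less of it per cell cannot be told apart.

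The regulators of the epithelial state and the serine proteases that act at its surface gave the same picture. Of 21 genes 20 were measured, Tmprss4 having no row, and 18 were lower and 2 higher in NaJa-G, with a median log2 fold change of -2.37. Grhl2, a master activator of junction genes, was at 7.08, 8 and 7.83 CPM on day 1 and 4.97 and 5.97 CPM on day 5 in NaJa-G, against 46.2 to 52.9 CPM in NaJa-F (-2.94 ± 0.05, adjusted p = 1.49e-26). Esrp1, which directs epithelial splicing, ranged from 17.4 to 25.2 CPM against 128 to 148 CPM (-2.78 ± 0.04). Ovol1, a repressor of mesenchymal genes, ranged from 1.61 to 2.69 CPM against 12.1 to 15.1 CPM (-2.65 ± 0.13). The lines did not overlap for any of these 3 genes. The small GTPase gene Rab25 (-3.25 ± 0.08) and the adaptor subunit gene Ap1m2 (-3.09 ± 0.06), both of polarised membrane traffic, were lowered to a like extent, as were the membrane protease gene St14 (-2.75 ± 0.07) and Prom1 (-3.33 ± 0.09), which encodes the microvillar protein prominin-1. Klf5, a factor of crypt proliferation, was at 67.4 to 118 CPM in NaJa-G and 57.9 to 64.6 CPM in NaJa-F (0.56 ± 0.07, not called on day 1 alone, limma adjusted p = 0.0143), and Grhl3 (0.38 ± 0.08) was the other member above zero. The Grhl3 call was lost without NaJa-G day 5 replicate 3 (0.24, limma adjusted p = 0.0103) and on day 1 alone. Of 9 keratins, 7 were lower, among them Krt7 (304 to 597 CPM against 1387 to 1714 CPM, -1.83 ± 0.06) and Krt80 (-2.08 ± 0.05). Krt14, a basal keratin, was higher (1.76 ± 0.17) at a low level.

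ZEB and SNAI repressors bind the letters CACCTG, which read CAGGTG on the other strand. The promoters of Epcam, Rab25, Ap1m2 and the claudin gene Cldn7 (34.9 to 40.3 CPM against 230 to 251 CPM, -2.65 ± 0.06) are shown as examples of genes at least 6-fold lower in NaJa-G with a window that holds the letters more than once. They are not the only ones, since a window of Ocln and that of Cldn4 also hold them 2 times. Nor do the letters follow the direction throughout, since Grhl3, which was higher in NaJa-G, holds 2 copies and a second annotated start of Cldn7 has none. The windows of Spint1 (-2.95), Ovol2 (-2.32) and Cgn (-2.19), all lower in NaJa-G, hold none either. Each window shown is 300 bases of the RefSeq reference, build GRCm38.p6, from 250 before to 50 after an annotated start site. It is written 5′ to 3′ on the strand of the gene, with CACCTG or CAGGTG in capitals. The windows are chr17:87635729-87636028 (plus strand) for Epcam, chr11:69965171-69965470 (plus strand) for Cldn7, chr3:88548230-88548529 (minus strand) for Rab25 and chr9:21312284-21312583 (minus strand) for Ap1m2.
Epcam: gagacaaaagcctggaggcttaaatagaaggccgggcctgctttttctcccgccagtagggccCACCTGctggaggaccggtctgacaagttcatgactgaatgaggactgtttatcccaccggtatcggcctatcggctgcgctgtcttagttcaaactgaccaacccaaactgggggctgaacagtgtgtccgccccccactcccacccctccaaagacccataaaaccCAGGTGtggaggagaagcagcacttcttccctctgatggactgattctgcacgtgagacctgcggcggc
Cldn7: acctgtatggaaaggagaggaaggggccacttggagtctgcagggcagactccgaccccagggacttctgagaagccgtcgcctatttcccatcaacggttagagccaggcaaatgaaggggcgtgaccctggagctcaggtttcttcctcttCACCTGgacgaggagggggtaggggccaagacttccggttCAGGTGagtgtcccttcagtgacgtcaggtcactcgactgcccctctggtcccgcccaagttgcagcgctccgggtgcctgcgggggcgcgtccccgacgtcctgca
Rab25: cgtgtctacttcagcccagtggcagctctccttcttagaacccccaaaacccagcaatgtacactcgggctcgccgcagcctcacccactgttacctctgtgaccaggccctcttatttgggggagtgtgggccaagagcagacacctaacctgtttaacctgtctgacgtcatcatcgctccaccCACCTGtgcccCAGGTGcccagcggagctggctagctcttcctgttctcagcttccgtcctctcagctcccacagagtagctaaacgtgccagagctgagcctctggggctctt
Ap1m2: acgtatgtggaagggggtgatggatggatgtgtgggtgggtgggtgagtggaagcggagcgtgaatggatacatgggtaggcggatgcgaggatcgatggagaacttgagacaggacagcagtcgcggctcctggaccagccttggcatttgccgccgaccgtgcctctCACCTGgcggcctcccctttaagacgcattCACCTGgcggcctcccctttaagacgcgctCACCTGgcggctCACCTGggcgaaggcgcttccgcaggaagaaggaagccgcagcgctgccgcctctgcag
The letters occur 2 times in the Epcam, Cldn7 and Rab25 windows and 4 times in the Ap1m2 window. Of the 49 genes of the junction and regulator lists, 28 had an entry in the promoter table used, with 36 promoters, and 22 of these (61.1%) held the letters at least once. Over all genes tested with an entry, 2410 of 13082 promoters (18.4%) held them. The share was 27.9% for promoters of genes called at least 2-fold lower in NaJa-G and 19.4% for those at least 2-fold higher. These are counts of letters, with no test, and no binding was measured.

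Of 14 EMT transcription factors 13 were measured (Twist2 had no row), 9 were higher, 1 was lower and 3 were not called in NaJa-G, with a median log2 fold change of 0.93. Zeb2 was at 72.3, 66.2 and 68.6 CPM on day 1 and 89.6 and 78 CPM on day 5 in NaJa-G, against 25.1 to 33.1 CPM in NaJa-F (1.36 ± 0.04, adjusted p = 3.74e-21). Zeb1 ranged from 30.2 to 43.4 CPM against 16.2 to 20.1 CPM (0.93 ± 0.05), and Twist1 from 27.8 to 40.5 CPM against 11.3 to 14.8 CPM (1.39 ± 0.06). Neither gene overlapped between the lines, and neither was silent in NaJa-F. Snai1 (0.99 ± 0.15) and Snai2 (0.59 ± 0.07) were higher at levels below 9 CPM in every library, whereas Snai3 was lower (-1.42 ± 0.12). Tcf4, encoding an E-protein that partners TWIST factors, ranged from 524 to 912 CPM against 143 to 262 CPM (1.74 ± 0.04), and Prrx2 differed alike (110 to 181 CPM against 31.7 to 48.7 CPM, 1.74 ± 0.07). Foxc2 had the highest log2 fold change of the list (3.15 ± 0.56) but stayed between 0.765 and 3.75 CPM in NaJa-G.

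Among 16 genes of the mesenchymal cytoskeleton and adhesion, 15 were measured, 9 were higher, 2 were lower and 4 were not called, with a median of 1.33. That median was 0.045 over members of at least 2 log2 CPM, as Cnn1, Myl9, Tpm2 and Cdh11 were higher at no more than 4.84 CPM. Vim was at 2930, 2323 and 2255 CPM on day 1 and 2087 and 2383 CPM on day 5 in NaJa-G, and at 466, 472 and 409 CPM and 323, 327 and 304 CPM in NaJa-F (2.64 ± 0.08). N-cadherin (Cdh2) ranged from 153 to 192 CPM against 60.1 to 75.5 CPM (1.33 ± 0.06), and the metastasis-associated gene S100a4 from 6.96 to 12.6 CPM against 1.2 to 1.73 CPM (2.75 ± 0.16). All 5 NaJa-G libraries were above all 6 NaJa-F libraries for these 3 genes. The contractile genes split from them by day. Acta2, smooth muscle actin, was at 32.5, 27.5 and 27.2 CPM on day 1 but 3.56 and 3.85 CPM on day 5 in NaJa-G, and at 0.237 to 0.644 CPM in NaJa-F (4.79 ± 0.19). Tagln fell from 12.9 to 13.7 CPM on day 1 to 5.82 and 4.25 CPM on day 5 in NaJa-G, near the 3.71 to 4.86 CPM of NaJa-F, and was not called on day 5 alone (0.35, adjusted p = 0.0214). Cald1, encoding the actin-binding caldesmon, was lower in NaJa-G (41.5 to 77.9 CPM against 180 to 190 CPM, -1.68 ± 0.05).

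**Figure D2:**
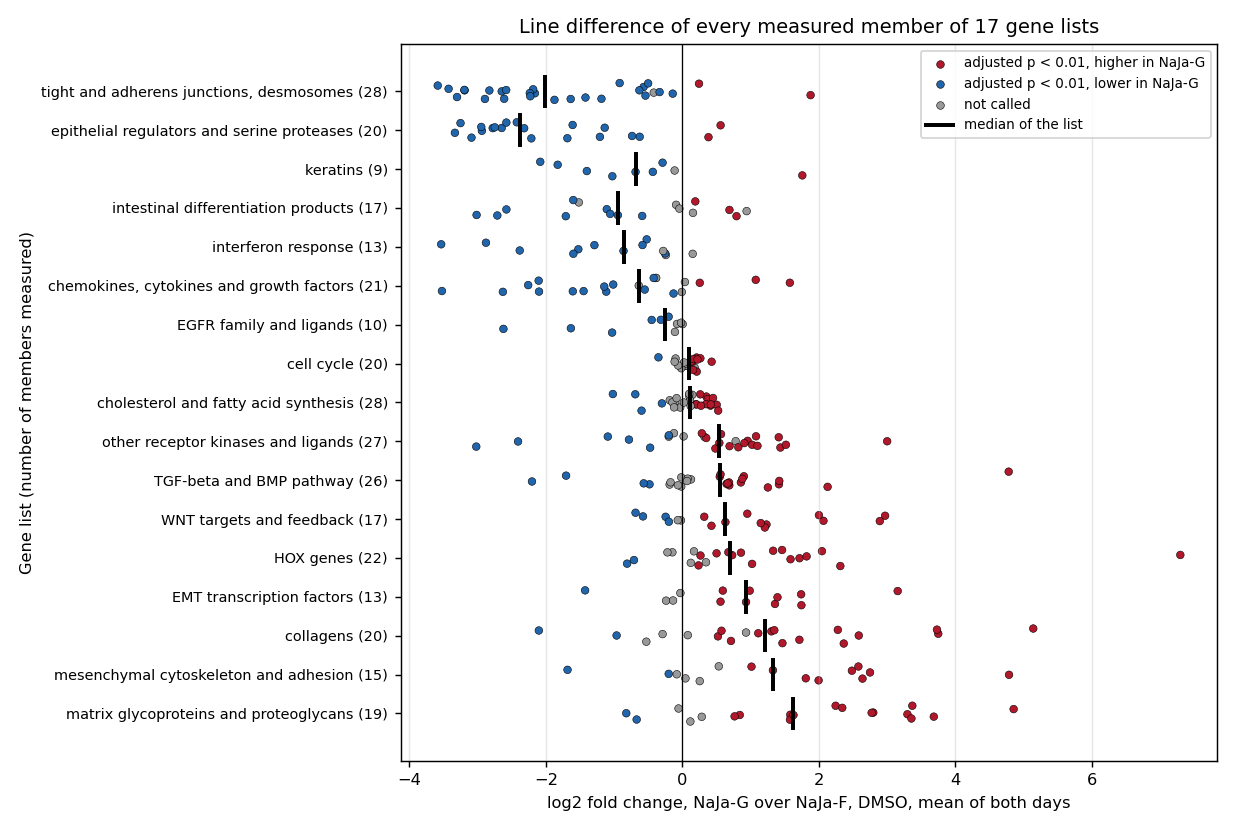
Each point is 1 measured member of a gene list, placed by its log2 fold change of NaJa-G over NaJa-F in DMSO (mean of both days), red when called higher, blue when called lower and grey when not called, with the list's median as a black bar and the number measured in brackets. Medians run from -2.37 for epithelial regulators to 1.63 for matrix glycoproteins, and the cell cycle list lies within -0.35 and 0.43.

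Most collagen and matrix glycoprotein genes measured were higher in NaJa-G. Of 22 collagens 20 were measured, 14 were higher and 2 lower, with a median log2 fold change of 1.21. Col1a1 was at 50.9, 40.1 and 35.3 CPM on day 1 and 9.92 and 12.1 CPM on day 5 in NaJa-G, against 1.38 to 1.95 CPM in NaJa-F (3.75 ± 0.14, adjusted p = 2.08e-19). Col1a2, its partner chain in type I collagen, was at 17.7, 15.5 and 14.2 CPM and then 3.31 and 3.74 CPM, against 0.131 to 0.302 CPM (5.14 ± 0.26). Both chains were above every NaJa-F library on both days, which the rule that picked Col1a2 required for that gene. Col3a1 (2.36 ± 0.19, not called on day 5 alone, limma adjusted p = 0.0489), Col5a2 (3.73 ± 0.23) and Col6a3 (2.58 ± 0.14) followed. The 2 lower members were Col27a1 (-2.10 ± 0.23) and Col7a1 (-0.96 ± 0.16), the anchoring fibril collagen of epithelial basement membrane, which overlapped between the lines and was not called on day 1 alone (limma adjusted p = 0.0155). Of 23 matrix glycoproteins and proteoglycans 19 were measured, 14 were higher and 2 lower, with a median of 1.63. Fbln2 (fibulin-2) ranged from 373 to 548 CPM against 11.7 to 21.3 CPM (4.85 ± 0.06, adjusted p = 5.54e-30), Tnc (tenascin-C) from 219 to 327 CPM against 19.8 to 34.4 CPM (3.37 ± 0.05) and Sparc from 72.1 to 90.5 CPM against 3.92 to 10.9 CPM (3.68 ± 0.07). The 2 lower members are strongly expressed adhesive glycoproteins. Fibronectin (Fn1) ranged from 4216 to 5171 CPM in NaJa-G and 7177 to 10136 CPM in NaJa-F (-0.82 ± 0.06), and thrombospondin-1 (Thbs1) from 604 to 1182 CPM against 1289 to 1391 CPM (-0.67 ± 0.05).

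Fibroblast markers moved with these genes. Of the 12 markers, 3 of which are collagens named above, 7 were in the table, 6 were higher in NaJa-G, and their summed level was 21.2 to 80.9 CPM against 4.94 to 6.97 CPM. Dcn, encoding decorin, was not called and had medians of 0.144 CPM in NaJa-G and 0.209 CPM in NaJa-F, and Dpt, Fap, Lum, Pi16 and Thy1 were not in the table. Pdgfrb, a mesenchymal growth factor receptor, ranged from 0.416 to 1.78 CPM against 0.0486 to 0.175 CPM (3.00 ± 0.35). The 5 of 8 smooth muscle markers measured summed to 39.8 to 96 CPM in NaJa-G and 77.9 to 99 CPM in NaJa-F, and Myh11, Des and Synpo2 were not in the table. Of the 5 measured, 2 were higher, 1 was lower and 2 were not called. Their median log2 fold change was 2.57 on day 1 and -0.83 on day 5. The part of other cells in the matrix differences was not tested.

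Basement membrane genes were divided. Of 14 genes 12 were measured, 5 were higher and 5 lower, with a median of -0.05. Over all genes tested 25.2% were higher and 29.2% lower, the background for this list and for the integrins and proteases below. Agrin (Agrn) ranged from 136 to 181 CPM against 636 to 784 CPM (-2.10 ± 0.07), and the epithelial laminin chain gene Lama3 was lower (-2.05 ± 0.05), while the chain gene Lamb3 was not called. Nid1 was higher on the mean of both days (1.5 ± 0.11), but its NaJa-G values on day 5 (2.32 and 2.27 CPM) overlapped those of NaJa-F (2.31 to 2.51 CPM). Of 20 integrins 16 were measured, 9 were higher and 6 lower. The collagen receptor subunit Itga2 (12.7 to 18.6 CPM against 74.4 to 90.1 CPM, -2.45 ± 0.07) and the epithelial subunit Itgb6 (15.3 to 20.7 CPM against 79.9 to 85.7 CPM, -2.21 ± 0.06) were lower. Itgb7 (38.3 to 66.8 CPM against 5.5 to 9.35 CPM, 2.74 ± 0.09) and Itgb3 (2.13 ± 0.10) were higher. Of 23 matrix proteases, inhibitors and crosslinkers 20 were measured, 9 were higher and 7 lower. The collagen crosslinkers Lox (5.58 ± 0.40) and Loxl2 (3.65 ± 0.20) and the inhibitor Timp3 (128 to 157 CPM against 29.8 to 39.1 CPM, 2.06 ± 0.06) were higher. The membrane-type protease genes Mmp15 (2.09 to 4.6 CPM against 21.4 to 31.1 CPM, -3.03 ± 0.15) and Mmp14 (-1.08 ± 0.04) and the plasminogen activator Plau (-2.23 ± 0.07) were lower.

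Intestinal identity genes did not move as a block. Of 23 intestinal transcription factors 14 were measured, 7 were higher, 4 lower and 3 not called, with a median of 0.20. Cdx2, which specifies hindgut epithelium, was at 9.88, 7.86 and 8.3 CPM on day 1 and 8.93 and 8.92 CPM on day 5 in NaJa-G, against 49.7 to 56 CPM in NaJa-F (-2.60 ± 0.08, adjusted p = 5.67e-22), and Isx was the lowest member, as given above. Sox9, a crypt factor, ranged from 30.5 to 53.8 CPM against 64.3 to 78 CPM (-0.84 ± 0.08). In contrast, Hnf4a was higher in NaJa-G at 3.95 to 5.95 CPM against 2.21 to 2.83 CPM (0.83 ± 0.09). None of these 4 genes overlapped between the lines, as for 33.3% of all genes, and the rule that picked Isx required it. Of 33 differentiation products only 17 were in the table, and 9 of these were lower, 3 higher and 5 not called. Gpa33, a surface antigen of colonic epithelium, ranged from 17.4 to 26.9 CPM against 165 to 204 CPM (-3.01 ± 0.06), the chloride channel gene Cftr (-2.71 ± 0.14) was at or below 3.21 CPM in every library, and Aqp8 (-1.71 ± 0.12) and Cdh17 (-1.11 ± 0.05) were lower. Tspan8, a tetraspanin, was higher (159 to 221 CPM against 93.3 to 120 CPM, 0.79 ± 0.05).

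HOX genes record position along the body axis and are kept by chromatin in cultured cells. Of 39 HOX genes 22 were measured, 15 were higher, 2 were lower and 5 were not called, with a median log2 fold change of 0.70, and no Hoxc gene was in the table. All 11 Hoxa genes measured were higher in NaJa-G. Hoxa11 was at 3.93, 3.19 and 3.59 CPM on day 1 and 3.01 and 3.06 CPM on day 5 in NaJa-G, and the 6 NaJa-F libraries held 7 reads of it together, with none in 2 of them (7.29 ± 0.41, adjusted p = 2.38e-15). Hoxa10 ranged from 38 to 53.2 CPM against 7.48 to 10.5 CPM (2.31 ± 0.06), and Hoxa9 from 46.7 to 67.9 CPM against 14.3 to 18.7 CPM (1.82 ± 0.07). Hoxb9, of the Hoxb cluster, differed little (273 to 306 CPM against 232 to 253 CPM, 0.24 ± 0.03). Hoxd8 (-0.81 ± 0.05) and Hoxd9 (-0.71 ± 0.11) were the 2 lower members, Hoxd9 without a call on day 5 alone (-0.37, limma adjusted p = 0.0577). Genes of these clusters overlap each other and antisense transcripts, and whether reads were counted by strand is not given in the sources used here, so neighbouring values may share reads.

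WNT target genes were mostly higher in NaJa-G, in lines that both carry the APCdel allele. Of 21 targets and feedback genes 17 were measured, 11 were higher, 4 lower and 2 not called, with a median of 0.63. Nkd1, a feedback inhibitor of WNT signalling, was at 97.9, 78.2 and 78.2 CPM on day 1 and 160 and 203 CPM on day 5 in NaJa-G, against 8.87, 9.77 and 7.85 CPM and 28.1, 29.5 and 27 CPM in NaJa-F (2.97 ± 0.07, adjusted p = 2.85e-24). Lgr5, the crypt stem cell receptor, was at 6.5 to 7.66 CPM and then 22.1 and 20.1 CPM, against 1.58 to 1.65 CPM and then 4.81 to 5.55 CPM (2.07 ± 0.07). Both genes were higher on day 5 than on day 1 in each line. Tnfrsf19, a stem cell marker also called Troy, ranged from 58.8 to 104 CPM against 7.61 to 14 CPM (2.89 ± 0.06), and Smoc2 from 293 to 389 CPM against 69.7 to 96.7 CPM (2.00 ± 0.04). Axin2, the most widely used WNT target, differed less (217, 223 and 219 CPM and then 405 and 428 CPM against 159 to 163 CPM and then 223 to 247 CPM, 0.63 ± 0.05). Myc (-0.24), Cd44 (-0.20), Ephb2 (-0.58) and Prox1 (-0.69) were the 4 lower members.

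**Figure D3:**
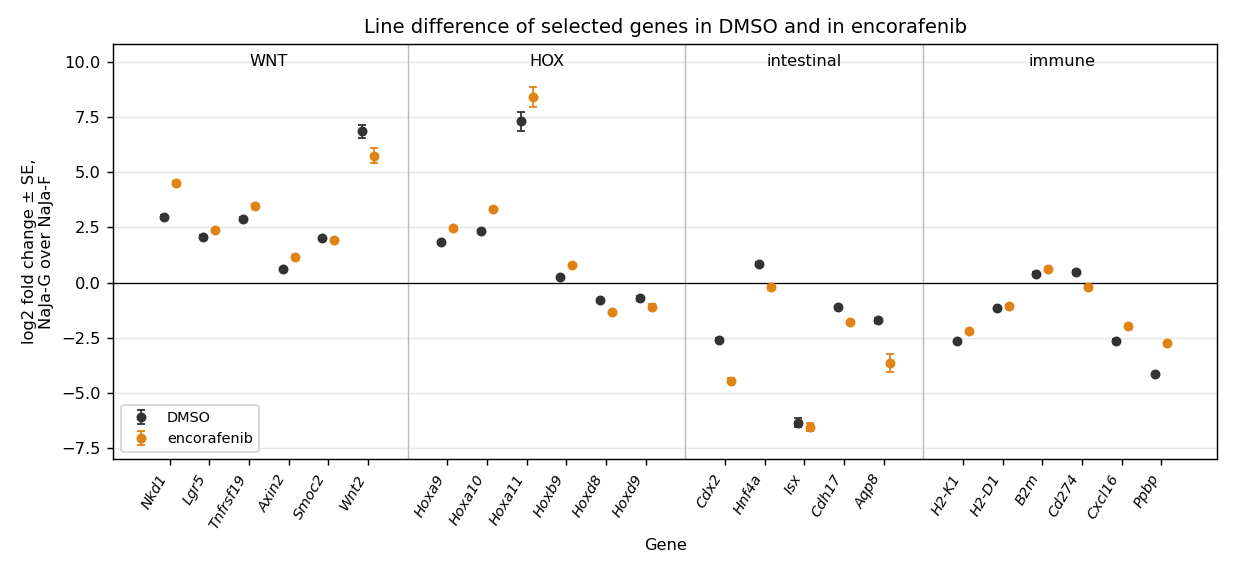
Log2 fold change of NaJa-G over NaJa-F with its standard error for WNT, HOX, intestinal and immune genes, in DMSO (dark) and in encorafenib (orange), mean of both days. Wnt2 (6.84), Hoxa11 (7.29) and Isx (-6.34) in DMSO have the same sign in encorafenib, while Hnf4a (0.83 and -0.20) and Cd274 (0.48 and -0.20) lie on opposite sides of zero. The encorafenib value of Hnf4a was not called (limma adjusted p = 0.251), nor was the DMSO value of Cd274 on day 5 alone (0.05, limma adjusted p = 0.774).

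Of 27 genes of the TGF-beta and BMP pathway 26 were measured, 14 were higher and 4 lower, with a median of 0.55. Besides Tgfb3, the ligand gene Bmp4 ranged from 46.4 to 59.3 CPM against 18.4 to 21.2 CPM (1.42 ± 0.05), and the BMP target genes Id1, Id2 and Id3 were higher at log2 fold changes of 0.56, 0.90 and 0.68. Bmp7 was lower (6.62 to 19.6 CPM against 28 to 47.6 CPM, -1.70 ± 0.07). YAP targets and fetal intestinal markers lay in the opposite direction: of 15 genes 14 were measured, 10 were lower, 2 were higher and 2 were not called, with a median of -0.55. Ccn2, a classical YAP target, ranged from 105 to 183 CPM against 458 to 489 CPM (-1.74 ± 0.06), and Ankrd1 was at 159 to 179 CPM on day 1 and 73 and 76.1 CPM on day 5 in NaJa-G, against 245 to 349 CPM (-1.30 ± 0.05). Clu ranged from 324 to 490 CPM against 1313 to 1659 CPM (-1.83 ± 0.06). Spp1, osteopontin, was the most raised member (435 to 570 CPM against 155 to 183 CPM, 1.58 ± 0.06).

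EGFR family genes and their ligands were measured for 10 of 12 members, of which 6 were lower and none higher in NaJa-G. Erbb3, a receptor that signals through its partners, was at 13.1, 14 and 13.6 CPM on day 1 and 14.8 and 17.3 CPM on day 5 in NaJa-G, against 75.8 to 106 CPM in NaJa-F (-2.62 ± 0.06, adjusted p = 4.34e-25). Egfr itself ranged from 36.8 to 39.3 CPM against 115 to 126 CPM (-1.63 ± 0.05). The libraries of each line varied little for Egfr and the lines lay far apart. Of 29 other receptor kinases and ligands 27 were measured, 16 were higher and 6 lower. Ret (3.84 to 6.97 CPM against 37.6 to 44.8 CPM, -3.02 ± 0.09) and the ligand gene Pdgfb (9.87 to 17.2 CPM against 62.6 to 83.2 CPM, -2.41 ± 0.06) had the lowest log2 fold changes, and Axl was lower too (-1.09 ± 0.07). Tyro3, which belongs to one receptor family with Axl and Mertk, was higher (35.6 to 49.6 CPM against 18.7 to 19.7 CPM, 1.08 ± 0.06), while Mertk (0.32 ± 0.11) and the hepatocyte growth factor receptor gene Met (-0.12 ± 0.07) were not called. Fgfr1 (20 to 29 CPM against 7.1 to 10.3 CPM, 1.44 ± 0.05), Pdgfra (0.35 ± 0.08) and the collagen receptor gene Ddr2 (1.41 ± 0.16) were among the 16 higher members.

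Outputs of the ERK pathway, which oncogenic BRAF drives, were split in the untreated lines. Of 20 genes 12 were higher and 5 lower, with a median of 0.32. Etv5, a transcription factor induced by ERK, ranged from 68.3 to 92.5 CPM against 30.3 to 41.7 CPM (1.15 ± 0.05), and the feedback inhibitor gene Spry4 from 19.5 to 29.2 CPM against 9.57 to 11.9 CPM (1.17 ± 0.07). Etv1 had the highest log2 fold change at a low level (2.13 ± 0.21). Dusp6, an ERK phosphatase and common readout of the pathway, was at 193, 174 and 173 CPM on day 1 and 137 and 193 CPM on day 5 in NaJa-G and at 140 to 178 CPM in NaJa-F. It was not called (0.10 ± 0.06, adjusted p = 0.126), and 1 library decided its direction: without NaJa-G day 5 replicate 3 the value was -0.02, and without NaJa-G day 5 replicate 1 it was 0.22 and called (adjusted p = 9.39e-05). Dusp5 was lower (-0.55 ± 0.07) through its day 5 libraries, with no call on day 1 alone.

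Genes of antigen presentation and interferon response were more often lower than higher in NaJa-G. Of 20 genes of MHC class I and antigen loading 14 were measured, 7 were lower and 3 higher, beside 29.2% lower and 25.2% higher over all genes. Their median was -0.17, and -0.03 over members of at least 2 log2 CPM. The loading genes Tap1, Psmb8 and Psmb9 were among those not in the table. H2-K1, a classical class I heavy chain, was at 41.5, 41.8 and 42 CPM on day 1 and 32.3 and 37.9 CPM on day 5 in NaJa-G, against 224 to 264 CPM in NaJa-F (-2.65 ± 0.06, adjusted p = 4.68e-25). H2-D1 ranged from 103 to 127 CPM against 225 to 296 CPM (-1.16 ± 0.07). The 2 heavy chains share long stretches of sequence, and the counting of reads that match both is not given in the sources used here. B2m, the light chain, was higher (93.1 to 148 CPM against 83.6 to 92.4 CPM, 0.41 ± 0.05), with no call on day 1 alone. Of 22 interferon response genes 13 were measured, 10 were lower and none higher, with a median of -0.86. The cytosolic RNA sensor genes Ifih1 (1.09 to 2.16 CPM against 7.98 to 9.93 CPM, -2.38 ± 0.12) and Ddx58 (6.31 to 7.94 CPM against 19.3 to 23.2 CPM, -1.60 ± 0.05) and the feedback gene Usp18 (-3.53 ± 0.19) were among them.

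Of 32 chemokines, cytokines and growth factors 21 were measured, 13 were lower and 3 higher in NaJa-G, with a median of -0.64. Cxcl16, a membrane-anchored chemokine, was at 24.6, 24.7 and 24.3 CPM on day 1 and 14.5 and 15.3 CPM on day 5 in NaJa-G, against 108 to 131 CPM in NaJa-F (-2.63 ± 0.05). The neutrophil-attracting chemokine genes Cxcl5 (27.6 to 51.7 CPM against 157 to 177 CPM, -2.10 ± 0.07) and Cxcl1 (-1.45 ± 0.13) and the growth factor gene Csf3 (-3.52 ± 0.19) were lower, whereas Cxcl2, a close relative, was higher (1.57 ± 0.18) at 1.88 to 3.28 CPM. Ppbp, given above among the abundant genes, ranged from 27.1 to 34.2 CPM against 497 to 571 CPM (-4.15 ± 0.06). Checkpoint ligands and regulators were divided: of 21 genes 15 were measured, 7 were higher and 5 lower. Pdcd1lg2, encoding PD-L2, was at 19.4 to 20.2 CPM on day 1 and 8.43 and 8.51 CPM on day 5 in NaJa-G, against 3.29 to 5.04 CPM (1.72 ± 0.08). Nt5e, which makes adenosine, was higher (2.01 ± 0.12), as was Vsir (2.97 ± 0.25), and Cd276 was lower (42.4 to 52.4 CPM against 131 to 150 CPM, -1.54 ± 0.06).

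Axon guidance genes, which steer migrating cells and axons in development, showed large differences in both directions. Of 41 ephrins, semaphorins and guidance receptors 40 were measured, 19 were higher and 17 lower, with a median of 0.18, and the lines did not overlap for 28 of them, beside 33.3% of all genes. Plxnd1 (44.5 to 91.2 CPM against 6.76 to 18 CPM, 2.43 ± 0.08) and Robo2 (4.76 ± 0.40) were at the upper end. Sema3f (14.6 to 19 CPM against 78.2 to 93.3 CPM, -2.37 ± 0.09) and Ntn1 (-2.36 ± 0.19) were near the lower end. Cell cycle genes differed little: of 20 genes 9 were higher and 1 lower, and the range was -0.35 to 0.43. Among cyclins D, cyclin-dependent kinase (CDK) inhibitors and p53 targets, Ccnd2 was at 189 to 230 CPM on day 1 and 305 and 297 CPM on day 5 in NaJa-G, against 29 to 44.4 CPM (2.70 ± 0.06). Cdk6, its kinase partner, was lower (96.1 to 128 CPM against 307 to 373 CPM, -1.53 ± 0.05), and the tumour suppressor locus Cdkn2a was higher (156 to 205 CPM against 99.8 to 118 CPM, 0.72 ± 0.09). That list counted 9 higher and 5 lower of 20 measured, beside 25.2% higher and 29.2% lower over all genes. Of 25 glycolysis and hypoxia genes measured, 9 were higher and 6 lower, beside the same shares, with a median of 0.05. The lactate exporter gene Slc16a3 (17.2 to 22.4 CPM against 1.92 to 2.99 CPM, 2.99 ± 0.14) and the hypoxia marker Car9 (-2.10 ± 0.16) were its extremes, and Ldha differed by 0.42 ± 0.07.

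The differences were not spread evenly over chromosomes. The 1034 genes tested on chromosome 5 had a median log2 fold change of -0.34, and 625 of them (60.4%) were called lower and 92 (8.9%) higher, against 29.2% and 25.2% over all genes. The median over these genes of each library's log2 CPM relative to the NaJa-F average was -0.39 to -0.26 in the 5 NaJa-G libraries and -0.02 to 0.05 in the 6 NaJa-F libraries. In windows of 50 neighbouring genes, 20 of the 21 windows of chromosome 5 had a median below -0.2, with values from -0.83 to -0.02. Over the genome, 23 of 282 windows did. In the opposite direction the X chromosome (440 genes) had a median of 0.25 with 8 of 9 windows above 0.2, chromosome 14 (452 genes) a median of 0.22, chromosome 6 (685 genes) a median of 0.20 and chromosome 7 (1021 genes) a median of 0.12. The medians of the other autosomes lay between -0.09 and 0.08. The 4 genes of the Y-linked list measured, Ddx3y (-0.78 ± 0.07), Uty (-0.61 ± 0.06), Kdm5d (-0.87 ± 0.11) and Eif2s3y (-0.90 ± 0.15), were all lower in NaJa-G, at 39.3 to 61.7 CPM against 68.2 to 97.2 CPM for Ddx3y. Several genes described above lie on these chromosomes: Nat8l, Plac8, Prom1, Cdx2, Cldn3, Cldn4, Ppbp, Cxcl5 and Cdk6 on chromosome 5, and Wnt2, Col1a2, Fbln2, Ccnd2 and the Hoxa genes on chromosome 6. These genes were named for large differences or as list members, so their distance from the median of their chromosome cannot be read as a result. The part of chromosome-wide shifts in single genes was not tested, and DNA copy number was not analysed here.

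**Figure D4:**
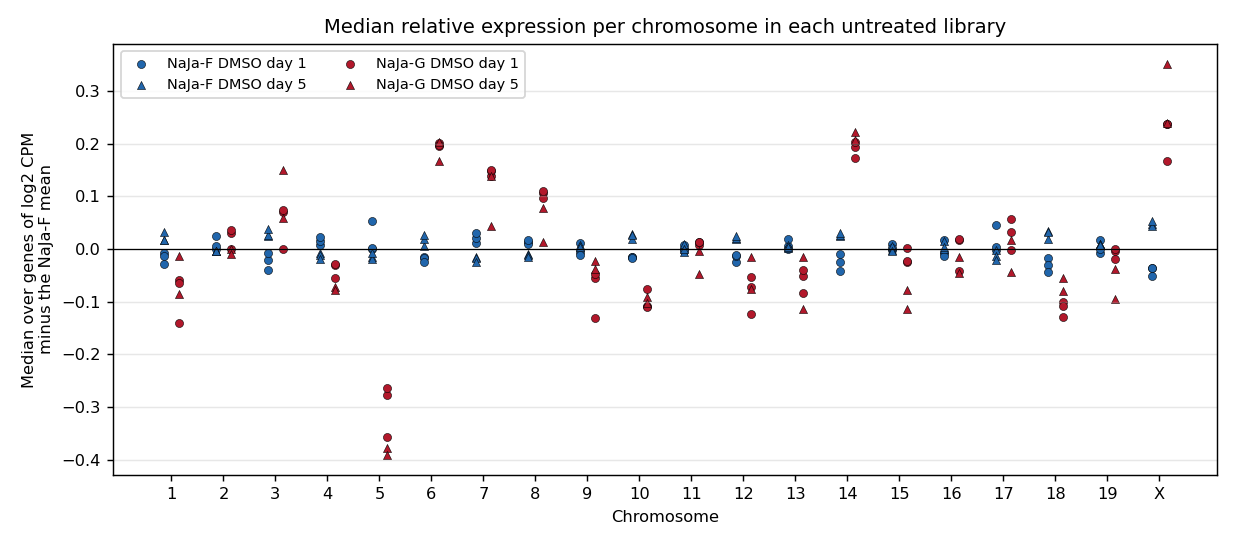
For each chromosome, the median over its genes of log2 CPM minus the NaJa-F mean in each untreated library, NaJa-F in blue and NaJa-G in red, circles for day 1 and triangles for day 5. All 5 NaJa-G libraries lie at -0.39 to -0.26 on chromosome 5 and above the NaJa-F libraries on chromosomes 6, 14 and X.

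Whether the line difference depended on the day was tested as the day 5 difference minus the day 1 difference, both in DMSO. It was called for 885 genes (6.27%), 432 with a positive and 453 with a negative value, and exceeded 1 on the log2 scale for 131. The number rests on the libraries used: it was 567 without NaJa-F day 1 replicate 1. The line difference itself was called with the same sign on each day alone for 4623 genes. Of the 885 genes, 580 had a line difference of the same sign on both days and 305 of opposite sign. Among the 305, 38 were called on each day alone. Several matrix and contractile genes had negative values. Nid1, which encodes the basement membrane linker nidogen-1, was at 12.8, 11.5 and 13.7 CPM on day 1 and 2.32 and 2.27 CPM on day 5 in NaJa-G, and at 1.39 to 1.59 CPM and then 2.31 to 2.51 CPM in NaJa-F, which gave a day dependence of -3.15 ± 0.23 (adjusted p = 7.68e-10). Acta2 (-2.85 ± 0.39), Col3a1 (-3.52 ± 0.38), Col5a2 (-3.46 ± 0.45), Col1a1 (-1.90 ± 0.29) and Col1a2 (-2.22 ± 0.52) followed. When only the groups compared were fitted, the calls of Col1a1 (adjusted p = 0.0109) and Col1a2 (0.0146) were lost. The Col1a2 call was also lost without any of 4 NaJa-F libraries, at adjusted p from 0.0128 to 0.0337. For Lox the value was -3.18 ± 0.80, and its call was lost with the edgeR quasi-likelihood test (adjusted p = 0.0195) and when any of 7 libraries was left out. The collagen list had 7 of 20 members called here, and its median line difference was 1.28 on day 1 and 0.88 on day 5. The fibroblast markers, which share 3 of those collagens, had 3 called. Fn1 (0.66 ± 0.11) and Thbs1 (0.85 ± 0.10) had positive values. Fibronectin stood at 9130 to 10136 CPM on day 1 and 7177 to 7329 CPM on day 5 in NaJa-F but at 4216 to 4618 CPM and then 5171 and 5134 CPM in NaJa-G. Ifitm3, an interferon-inducible membrane protein, rose in both lines and had a negative value (-2.02 ± 0.35, not called with limma-trend, adjusted p = 0.0133), as its level went from 8.42 to 9.25 CPM to 22.4 and 27.3 CPM in NaJa-G and in NaJa-F from 0.297 to 0.48 CPM on day 1 to 4.05 to 4.91 CPM on day 5.

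Among called genes averaging at least 3 log2 CPM in a group, the most positive day dependence belonged to Pik3ip1, an inhibitor of PI3 kinase (1.51 ± 0.19, adjusted p = 2.72e-06), which was at 2.09 to 2.43 CPM on day 1 and 9.78 and 9.06 CPM on day 5 in NaJa-G and at 2.81 to 3.05 CPM and then 4.06 to 4.47 CPM in NaJa-F. The antiproliferative gene Btg2 (4.25 to 5.29 CPM, then 12.4 and 13.7 CPM in NaJa-G, 1.35 ± 0.15) and the BH3-only gene Bmf (3.79 to 4.33 CPM, then 25 and 24.9 CPM, 1.35 ± 0.25) behaved alike, and NaJa-F changed less for each. Nts, encoding the peptide neurotensin, rose from 1.47 to 1.98 CPM to 4.95 and 5.03 CPM in NaJa-G (1.46 ± 0.27) but stayed far below the 40.6 to 48.1 CPM of NaJa-F. Cholesterol and fatty acid synthesis genes shared a direction: 16 of 28 were called for day dependence, beside 6.27% of all genes, and the median line difference of the list was -0.14 on day 1 and 0.38 on day 5. Scd2, a fatty acid desaturase, was at 1041, 958 and 916 CPM on day 1 and 2994 and 3130 CPM on day 5 in NaJa-G, and at 1055 to 1254 CPM and then 1680 to 1771 CPM in NaJa-F (1.10 ± 0.11). Cyp51, an enzyme of cholesterol synthesis, rose in NaJa-G too (304 to 339 CPM, then 613 and 631 CPM, 0.74 ± 0.11) and stayed below NaJa-F on both days (-1.02 ± 0.06). On the mean of both days this list had 12 members higher, 4 lower and 12 not called. Among epithelial and immune genes, Grhl2 (-0.62 ± 0.11), Esrp1 (-0.53 ± 0.09), Pdcd1lg2 (-1.53 ± 0.16) and Cd274, encoding PD-L1 (-0.86 ± 0.17), had negative values, of which those of Esrp1 (adjusted p = 0.016) and Cd274 (0.017) were not called when only the groups compared were fitted.

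The same line difference was measured in cells treated with 0.5 µM encorafenib, an inhibitor of mutant BRAF (6 NaJa-G and 5 NaJa-F libraries). These libraries are outside the DMSO contrast, but both were fitted together and share the estimate of the spread. In encorafenib 9265 genes (65.7%) were called, 4546 higher and 4719 lower in NaJa-G. Of the 7673 genes called in DMSO, 72.7% were called with the same sign in encorafenib, and of those called in encorafenib 60.2% were called with the same sign in DMSO. Of the 2089 genes at least 2-fold apart in DMSO, 1980 had the same sign, 1856 were called with it and 46 were called with the opposite sign. A difference between the 2 treatments was itself called for 5748 genes (40.7%). The medians of the junction and epithelial regulator lists were closer to zero in encorafenib, at -1.49 and -1.54, and the collagen and matrix glycoprotein medians were larger, at 2.03 and 2.5. Epcam (-2.29), Zeb2 (2.13) and Vim (3.37) kept their direction, and Cdx2 stood at -4.45. Zeb1 and Snai2 were further apart than in DMSO (2.15 against 0.93, and 1.94 against 0.59), and Sparc reached 5.06. Cald1, lower in NaJa-G in DMSO, was higher in encorafenib (0.69, adjusted p = 4.52e-13).

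Medians of the ERK, YAP and cell cycle lists had opposite signs in DMSO and encorafenib. So did those of the basement membrane list (-0.05 and 0.56) and the cholesterol and fatty acid synthesis list (0.12 and -0.09). The mesothelial markers measured did likewise (-0.43 and 0.46). The ERK output list had 3 members higher and 10 lower in NaJa-G in encorafenib, with a median of -0.15 beside 0.32 in DMSO, and Dusp6 was lower there (-1.12, adjusted p = 8.58e-17). The cell cycle list had 1 higher and 18 lower, with a median of -0.46 beside 0.10. The YAP and fetal list had 8 higher and 5 lower with a median of 0.26 beside -0.55. By a fixed rule, the genes with the largest DMSO difference among those called with the opposite sign in encorafenib were Slco4a1 (1.44 in DMSO and -0.49 in encorafenib), Ube2ql1 (1.27 and -0.81) and Spry4 (1.17 and -0.84) in one direction. In the other direction they were Adh1 (-3.23 and 1.21), Afap1l2 (-2.76 and 0.58) and Slc24a3 (-2.66 and 0.76). Adh1 was measured at 12 reads over the 5 NaJa-G DMSO libraries, and its DMSO difference was not called on day 1 alone (-1.53, limma adjusted p = 0.0414). Its encorafenib call was lost with the DESeq2 Wald test (adjusted p = 0.0134) and when any of 7 libraries was left out. That of Afap1l2 was lost with limma-trend (adjusted p = 0.041). In DMSO, Afap1l2 (0.0375 CPM per kilobase in NaJa-G and 0.193 in NaJa-F) and Slc24a3 (0.124 and 0.773) were at low levels in both lines.

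**Figure D5:**
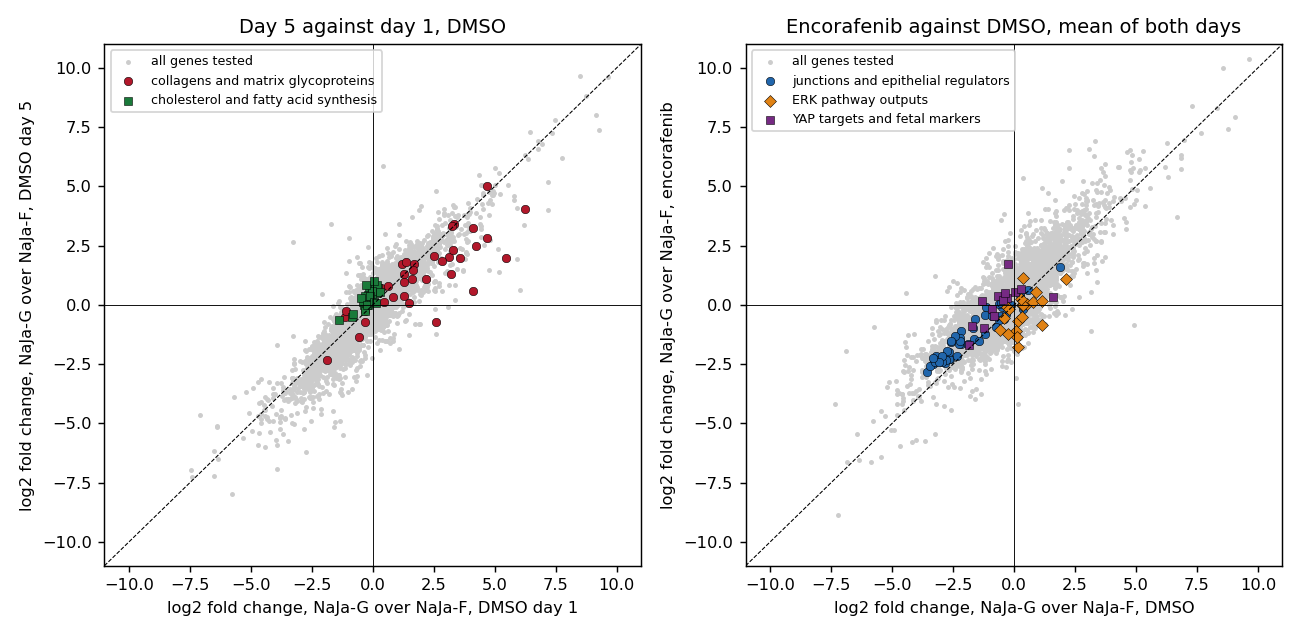
Log2 fold change of NaJa-G over NaJa-F for all genes tested (grey), left for DMSO day 5 against day 1 with matrix genes in red and cholesterol and fatty acid synthesis genes in green, right for encorafenib against DMSO with junction and epithelial regulator genes in blue, ERK outputs in orange and YAP and fetal genes in purple. Matrix genes lie mostly below the dashed line of equality and cholesterol genes above it on the left, and ERK outputs lie mostly below it on the right.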

How the data were processed

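The authors deposited a table of read counts per gene for 34 libraries (mRNA sequencing, whole numbers, not normalized). The submitters' processing notes name Trimmomatic 0.39 and STAR 2.5.2b with the mouse build GRCm38 (mm10). How reads were counted, with which gene annotation and whether by strand, is not given in the sources used here, and the labels name no batch. All 14107 genes of the table pass 1 CPM in at least 2 libraries and were tested, and 14064 gene identifiers matched a symbol in GENCODE M21. Groups came from the sample titles. Counts were scaled by TMM in edgeR 4.0.16, and all 34 libraries in 12 groups were fitted with limma 3.58.1 voom, which weights each count by its precision. Each contrast is a difference of line means, every line mean being the average of its day 1 and day 5 group means, with two-sided Benjamini-Hochberg adjusted p below 0.01 as the call. Leave-one-out fits, a replicate block, edgeR, DESeq2 1.42.0, limma-trend, other scalings and filters were tried. Total counts were at least 56441590 in the libraries compared. Over genes above a minimum of reads, the variance between replicates averaged 3.32 to 69.1 times that of counting alone in the groups used. On that average counting error was not the limit. It was not assessed for genes with few reads in one line, such as Gpc6 and Hoxa11 in NaJa-F and Adh1 in NaJa-G.

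Named genes are members of gene lists, the 12 highest and 12 lowest fold changes among called genes that averaged 3 log2 CPM in their higher line without overlap, the 8 largest differences per kilobase in each direction, the 4 extremes of day dependence on each side, the 3 extremes of opposite sign in encorafenib on each side, and Braf, Trp53 and Apc. The members, lists and tests were chosen with earlier results of these data known. Scripts were tested on simulated data. Some genes picked by these rules are not reported here.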

Additional observations from a re-analysis of the deposited data

Results flagged for a closer look

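The line difference changed with the day for 885 genes (limma interaction of line and day, adjusted p below 0.01). The named genes among them, with the day 5 minus day 1 value of the NaJa-G over NaJa-F log2 fold change, were as follows. Of the matrix and contractile genes, Nid1 had -3.15, Acta2 -2.85, Col3a1 -3.52, Col5a2 -3.46, Col1a1 -1.90, Col1a2 -2.22 and Lox -3.18, while Thbs1 had 0.85 and Fn1 0.66. Of the lipid synthesis genes, Scd2 had 1.10 and Cyp51 0.74. Among other genes, Pik3ip1 had 1.51, Nts 1.46, Btg2 1.35, Bmf 1.35 and Ifitm3 -2.02. The immune ligand genes Pdcd1lg2 and Cd274 had -1.53 and -0.86, and the epithelial regulators Esrp1 and Grhl2 had -0.53 and -0.62. The calls of Col1a1, Col1a2, Lox, Cd274 and Esrp1 were lost when only the groups compared were fitted. Each group held 2 or 3 libraries, too few to tell within a group which single library stands apart. Fits without 1 library were run, and single libraries decided some results, such as the direction of Dusp6.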

How the results depend on the processing

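The count of genes called in DMSO, 7673, was 7667 with edgeR, 7837 with DESeq2, 7601 with limma-trend and 8868 at an adjusted p below 0.05. A further minimum of 1 on the size of the log2 difference left 2089 in DMSO, 131 for the day dependence and 2419 in encorafenib. The day dependence, 885 genes, was 1690 at an adjusted p below 0.05 and 382 when only the groups compared were fitted. Leaving out 1 library gave 7171 to 7648 genes in DMSO, 567 to 831 for the day dependence and 8692 to 9155 in encorafenib, the lowest without NaJa-G DMSO day 5 replicate 3, NaJa-F DMSO day 1 replicate 1 and NaJa-F encorafenib day 5 replicate 2. The replicate block gave 7617, 890 and 9232. No pairing by replicate number was seen: of 15 same-numbered pairs 4 had correlated deviations above 0.1 (range -0.29 to 0.48, median -0.02). Pairs of other numbers ranged from -0.58 to 0.45 (median 0.04), and 5 of 11 libraries correlated best with their own number. With so few libraries per group, such correlations cannot decide whether libraries were paired. With the block the day dependence of Lox lost its call (adjusted p = 0.0101). The sign turned for Dsp on day 1 alone (-0.11, adjusted p = 0.262), Nid1 on day 5 alone (-0.0732), and, without NaJa-G DMSO day 5 replicate 3, Dusp6 (-0.0234) and Apc (0.0317, and -0.158 without replicate 1 of that group), and the cause was not tested. Braf became called with DESeq2 (0.22, adjusted p = 0.00681) and without NaJa-G DMSO day 5 replicate 3 (0.30, 0.00116). Trp53 became called with edgeR (0.00848), DESeq2 (0.000876), limma-trend (0.00914), RLE scaling (0.00417), genes of at least 2 log2 CPM (0.00769), day 1 alone (0.000669), and without NaJa-G DMSO day 1 replicate 2 (0.00881) or day 5 replicate 1 (0.000153). The share of DMSO calls higher in NaJa-G was 46.3%, 49.9% with RLE scaling and 50.4% with the DESeq2 Wald test. Restricting to genes of at least 2 log2 CPM turned the sign of the checkpoint (-0.05), integrin (-0.05) and protease (-0.72) medians and moved those of the mesenchymal (0.045), matrix glycoprotein (2.8), basement membrane (-0.35), keratin (-0.43), differentiation (-0.46), intestinal factor (0.03), MHC (-0.03), interferon (-0.56), WNT (0.95) and chemokine (-0.42) lists by over 1.5 times.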
